A study of Mus musculus with 10 samples.

Results

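The collagen genes were taken as all genes whose symbol in the GENCODE M21 annotation reads Col, a number, a and a number, with at least 10 counts in at least 2 of the 10 libraries. All 44 genes with such a symbol met the count minimum, out of 55536 genes counted, of which 20898 met the same minimum. RNA had been sequenced from cerebellum and cerebral cortex of 1-year-old mice, 2 Snx14-KO mice (KO 1 and KO 2) and 3 controls, and each mouse gave both tissues. The KO mice carried, on a C57BL/6J background, a CRISPR-made frameshift deletion in both copies of Snx14, which encodes a sorting nexin, and the deletion is present in all cells and not only in neurons. Controls 1 and 2 were labelled Het and control 3 WT, so 2 of the 3 controls lacked 1 functional copy of Snx14. The samples were tissue with a mix of cell types, so fewer cells of a type and less RNA per cell cannot be told apart.

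Collagens are secreted or membrane-bound proteins of 3 chains that wind into a triple helix. Fibrillar collagens assemble into the fibers of meninges and vessel walls, type IV collagens form the network of basement membranes under endothelium and around the brain surface, and the FACIT, beaded filament, network-forming, multiplexin and transmembrane classes decorate fibers, link them to cells or act at cell surfaces. In the brain, fibroblasts of the meninges, vascular cells and choroid plexus are known sources, and some collagens are made by neurons and glia, among them type XVIII in cerebellar Purkinje cells (PCs) and type XXV in cortical neurons.

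The 10 libraries held 16088310 to 22975355 gene counts. Expression values are CPM, the counts of a gene relative to the library size scaled with TMM factors over all 10 libraries, and levels of different genes are compared only on the TPM scale, which allows for gene length. Snx14 itself was lower in KO mice by the quasi-likelihood test of edgeR, with a log2 change of -1.66 in cerebellum (adjusted p 0.0140) and -1.36 in cortex (adjusted p 0.754, and 1.42e-06 with DESeq2). Summed markers matched the tissue labels, since granule cell genes were at 3879 to 4633 CPM in cerebellum and 19.9 to 37.7 CPM in cortex, and cortical excitatory neuron genes at 67.9 to 83.9 CPM and 1758 to 1903 CPM. Control 2 stood apart: pairs of libraries that held it differed by a chi-square per degree of freedom of 14.0 to 31.7, against 4.41 and 5.12 for controls 1 and 3. KO 1 and KO 2 differed by 13.3 on this measure in cerebellum, close to the 14.0 and 15.6 of the control 2 pairs there, and by 5.56 in cortex. Control 2 and KO 2 were male and the other mice female by Xist and Y-linked genes. The choroid plexus genes, 12 of 12 detected in each cerebellum library, summed to 2976, 1222 and 3521 CPM in cerebellum controls 1 to 3 and to 68.4 and 3026 CPM in KO 1 and KO 2.

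By length-corrected level, the most abundant collagen transcripts of cerebellum were Col9a3, Col18a1, Col9a2, Col5a1 and Col1a2, with means over the 5 libraries of 43.2, 39.2, 19.3, 10.4 and 8.91 TPM. In cortex they were Col6a1, Col4a2, Col4a1, Col5a1 and Col16a1, at 67.6, 28.4, 17.3, 13.1 and 10.8 TPM. In cerebellum the order differed between genotypes. In controls Col18a1 (49.8 TPM) and Col9a3 (48.1 TPM) led and Col5a1 was rank 4, and in KO mice Col9a3 led with 35.8 TPM, Col18a1 followed with 23.4 TPM and Col5a1 was rank 11. No collagen gene was at 0 in any library, and 30 of the 44 had at least 10 counts in each of the 10. The scarcest was Col10a1, a growth plate collagen, with 1 to 11 counts.

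To ask which collagens are characteristic of which tissue when Snx14 is present, cerebellum and cortex of the control mice were compared. A gene was called at an adjusted p under 0.05 and an absolute log2 change over 0.5. Of 43 members tested, 16 were called higher in cerebellum and 17 lower. Over all 19416 genes tested 40.5% were called, 19.1% higher and 21.5% lower. The largest difference toward cerebellum was that of Col18a1, whose product carries the endostatin fragment at its end. It was at 116, 105 and 101 CPM in cerebellum of controls 1 to 3 and at 4.32, 2.89 and 3.75 CPM in their cortex, a log2 difference of 4.88 (SE 0.141, adjusted p 5.06e-08).

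**Figure D1:**
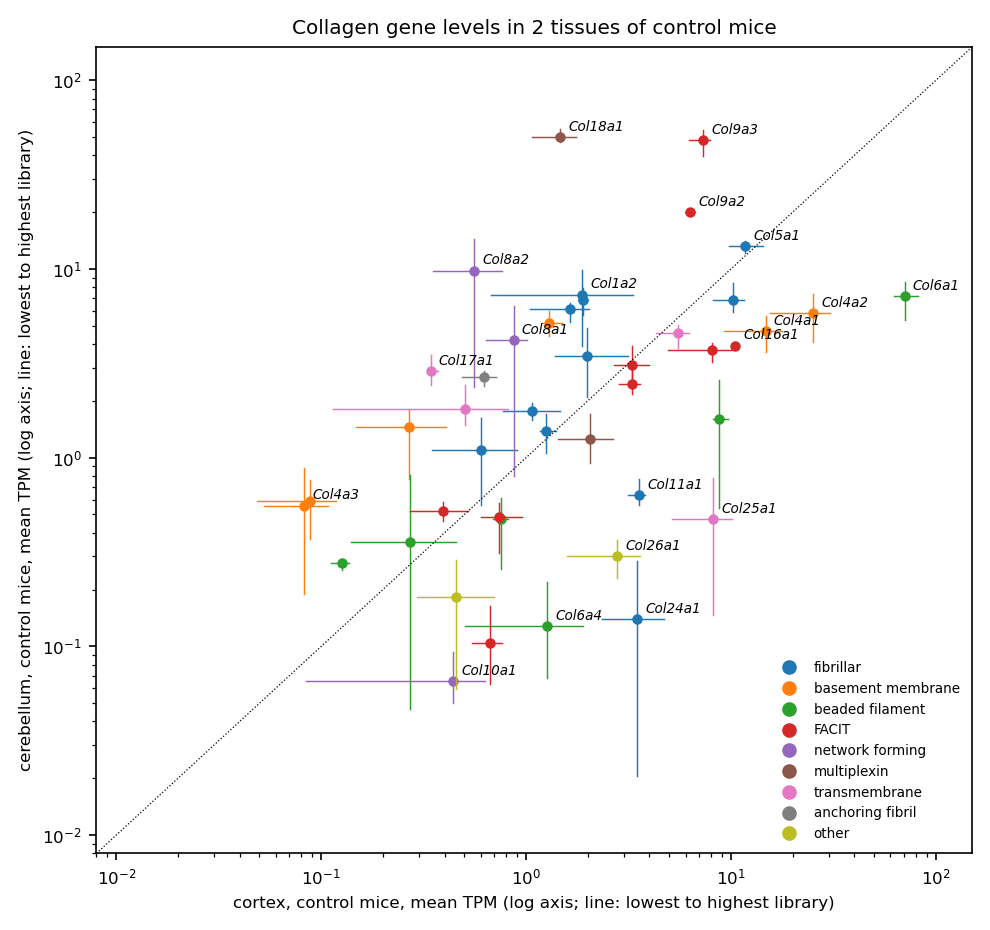
Mean TPM of each collagen gene in control cortex (horizontal) and control cerebellum (vertical) on log axes, colored by class, with lines from the lowest to the highest of 3 libraries and a dotted line of equal level. Col18a1, Col8a2 and Col9a3 lie far above the dotted line and Col6a1, Col25a1 and Col24a1 far below it, while Col5a1 lies on it.

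Basement membrane genes split by chain pair between the tissues. The ubiquitous chains, Col4a1 and Col4a2, were lower in cerebellum (log2 differences of -1.87 and -2.33, adjusted p 0.000165 and 9.07e-05). The other 4 type IV chains were all higher there, Col4a3 by 2.52, Col4a4 by 2.46, Col4a5 by 1.75 and Col4a6 by 2.22. Col4a3 and Col4a4 were among the scarcest members and followed the choroid plexus markers, as shown further on. The type VI genes of the classical beaded filament, Col6a1, Col6a2 and Col6a3, were lower in cerebellum by 3.54, 2.71 and 0.91 on the log2 scale, and Col6a4 by 3.55.

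Fibrillar members did not move as a class between the tissues, with 3 called higher, 3 called lower and 5 not called. Col1a2, the partner chain of Col1a1 in type I collagen, was higher in cerebellum by 1.76 (adjusted p 0.0143), Col5a3 by 1.69 and Col27a1 by 1.61. Col24a1 was lower by 4.89, Col11a1 by 2.72 and Col11a2 by 0.82. In cerebellum control 1 Col24a1 rested on 1 count. The fibroblast and meninges markers were also higher in cerebellum of control mice, with 11 of 13 tested called, and the part of this in the type I values was not tested.

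Among the membrane-spanning members Col25a1, whose shed ectodomain is found in amyloid plaques, was lower in cerebellum by 4.34 (adjusted p 4.00e-05), and Col17a1, a hemidesmosome collagen, higher by 2.84 (adjusted p 2.38e-05). Col8a2 and Col8a1, which form hexagonal networks, were higher in cerebellum by 3.91 and 2.05, and the FACIT genes Col9a3 and Col9a2 by 2.48 and 1.43. All 12 choroid plexus markers were called higher in cerebellum as well, and their part in the type VIII and Col9a3 values was not tested. Of the 33 calls, 26 held in each fit that left out 1 library, 31 with DESeq2 and 32 with the animal as a block. The 7 calls that were lost without some library were Col1a2, Col6a3, Col6a6, Col8a1, Col13a1, Col15a1 and Col28a1. Col6a6 was lost without each of the 6 libraries in turn, so its difference of 0.89 (adjusted p 0.0424) had the least support.

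The question of the study at this age was what changes in KO cerebella, where PCs degenerate, and in cortex, which is spared. In cerebellum 41 collagen genes could be tested, all but Col10a1, Col22a1 and Col28a1. Of these 23 were higher and 18 lower in KO mice, where 50.2% and 49.8% of all genes were, and 2 were called, Col18a1 and Col5a1, both lower. Over all 19447 genes tested 1.55% were called, 0.514% higher and 1.04% lower, and DESeq2 called 0.931% higher and 1.29% lower. The median log2 change of the members was 0.10, against 0.000899 over all genes. Without KO 2 it was -0.13 and without KO 1 0.35, so the direction of the median depended on which KO mouse was in the fit.

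Col18a1 (ENSMUSG00000001435.15) is transcribed from the minus strand of chromosome 10 (77052178 to 77166548, GRCm38). It stood at 116, 105 and 101 CPM in controls 1 to 3 and at 46.1 and 54.0 CPM in KO 1 and KO 2, so every KO library lay below every control. The means were 107 ± 7.83 CPM (SD, n = 3) and 50.0 ± 5.58 CPM (SD, n = 2). On the log2 scale it fell by 1.11 (SE 0.0924, adjusted p 0.000937), to 0.464 of the control level. The call held in all 5 fits that left out 1 library, with adjusted p from 0.00141 to 0.00842, and with DESeq2 (adjusted p 2.52e-21). The other multiplexin, Col15a1, was at 3.22, 1.90 and 2.24 CPM in controls and 1.87 and 2.65 CPM in KO mice, and these ranges overlapped (log2 change -0.11, SE 0.296).

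The tables count each gene as a whole, so the starts of Col18a1 could not be separated. RefSeq gives it a pair of promoter windows, each from 250 bases before to 50 after a start, and they are shown with that of Col5a1 because these are the genes called in the KO comparison. The windows are printed 5′ to 3′ on the strand of the gene, in build GRCm38.p6, at chr10:77166481-77166780 (minus strand) and chr10:77113656-77113955 (minus strand) for Col18a1 and chr2:27886175-27886474 (plus strand) for Col5a1. Capitals mark the GC box (GGGCGG or its reverse complement CCGCCC) and the CCAAT box (CCAAT or ATTGG), searched on both strands.
Col18a1 first window: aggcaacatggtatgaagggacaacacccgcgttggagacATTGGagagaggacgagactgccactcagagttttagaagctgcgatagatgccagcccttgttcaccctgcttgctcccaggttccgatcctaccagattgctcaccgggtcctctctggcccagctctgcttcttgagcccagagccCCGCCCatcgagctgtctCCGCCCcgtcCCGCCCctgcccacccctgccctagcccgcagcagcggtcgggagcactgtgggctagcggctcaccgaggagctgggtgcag
Col18a1 second window: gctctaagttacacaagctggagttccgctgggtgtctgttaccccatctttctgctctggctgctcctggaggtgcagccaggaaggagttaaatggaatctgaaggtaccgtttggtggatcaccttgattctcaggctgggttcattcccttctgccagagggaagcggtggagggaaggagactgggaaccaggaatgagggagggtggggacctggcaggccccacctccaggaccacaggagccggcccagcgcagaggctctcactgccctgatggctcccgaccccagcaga
Col5a1: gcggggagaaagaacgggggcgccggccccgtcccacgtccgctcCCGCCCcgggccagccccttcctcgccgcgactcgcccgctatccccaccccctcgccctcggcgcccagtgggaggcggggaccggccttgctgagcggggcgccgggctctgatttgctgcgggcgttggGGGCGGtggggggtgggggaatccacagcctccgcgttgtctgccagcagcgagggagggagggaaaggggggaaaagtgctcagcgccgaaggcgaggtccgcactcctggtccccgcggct
The first Col18a1 window held 3 GC boxes and 1 CCAAT box, the second held 0 of either, and the Col5a1 window held 2 GC boxes and no CCAAT box. No base was shared between the motifs. RefSeq windows were found for 35 of the 44 members, 38 windows in all, of which 60.5% held a GC box and 34.2% a CCAAT box. Over all 32851 windows of the table these shares were 35.7% and 37.4%. A match of this kind describes letters and is not evidence of a bound factor.

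Col5a1 (ENSMUSG00000026837.15), on the plus strand of chromosome 2 from 27886425 to 28039514, encodes a chain of type V collagen, which starts and limits the width of type I fibers. It was at 35.6, 36.3 and 31.5 CPM in cerebellum controls 1 to 3 and at 13.2 and 19.3 CPM in KO 1 and KO 2, again without overlap. On the log2 scale it fell by 1.08 (SE 0.160, adjusted p 0.0120). The call was lost without control 1 (log2 change -1.06, adjusted p 0.0739) and held in the other 4 fits that left out 1 library (adjusted p from 0.00453 to 0.0417). The other type V chains were not called. Col5a2 was at 4.91, 3.24 and 4.12 CPM in controls and 4.56 and 5.55 CPM in KO mice (log2 change 0.30, SE 0.217), and Col5a3 at 13.2, 11.3 and 13.7 CPM and 11.9 and 13.0 CPM (log2 change -0.04, SE 0.135). In TPM the ratio of Col5a1 to Col5a2 was 8.20, 12.7 and 8.63 in cerebellum controls and 3.27 and 3.94 in KO mice.

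**Figure D2:**
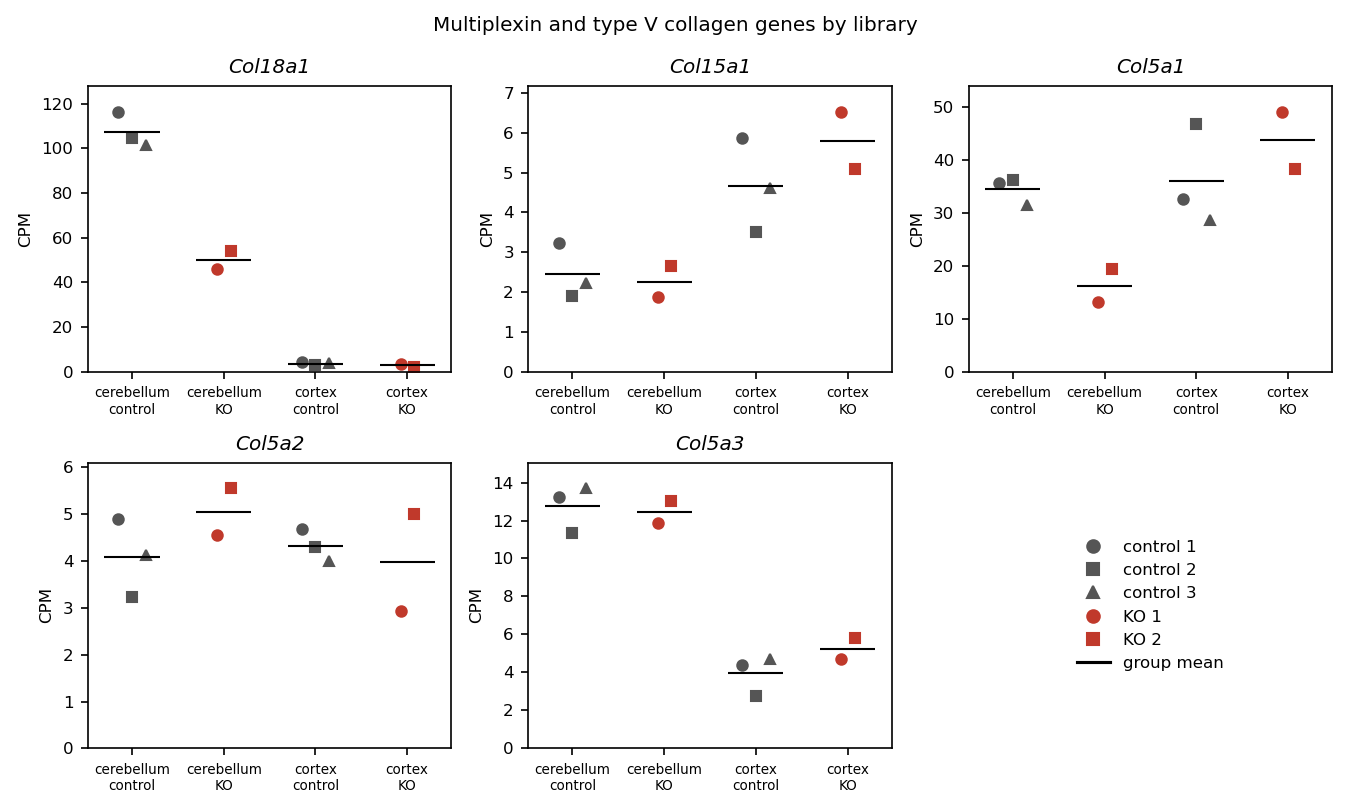
CPM of the multiplexin and type V genes in each library (vertical axis from 0) by tissue and genotype, with 1 point per mouse and a line at the group mean. In cerebellum the KO points of Col18a1 (46.1 and 54.0 CPM) and Col5a1 (13.2 and 19.3 CPM) lie below all controls, while those of Col15a1, Col5a2 and Col5a3 overlap them.

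The PC markers moved with both calls. All 10 of 10 PC genes were called lower in KO cerebellum, where 1.04% of all genes were, and none was at 0 in any library. The paper names Calb1, Pcp2, Car8 and Rgs8 of this list as lower in 1-year KO cerebella, so their direction was known beforehand. The sum of the list was 10379, 8562 and 10246 CPM in controls 1 to 3 and 4433 and 4319 CPM in KO 1 and KO 2. Per 1000 counts of these markers, Col18a1 had 11.2, 12.2 and 9.90 counts in controls and 10.4 and 12.5 in KO mice. Col5a1 had 3.43, 4.24 and 3.07 in controls and 2.97 and 4.48 in KO mice. On this scale the groups overlapped for both genes, whereas in CPM they did not. Since the list itself was lower in these KO libraries, any gene that fell by a similar amount would overlap on this scale. In cortex the PC list was at 1042 to 1287 CPM. The part of PC number in the 2 differences was not tested.

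In a fit without control 2 and KO 1, which was chosen after the data were seen and left 2 controls and 1 KO library, Col18a1 changed by -1.02 and Col5a1 by -0.80. That fit took the single KO library to vary as controls 1 and 3 did. The genes it called are therefore not named. Their number appears only with the processing alternatives and is not read as a result.

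In the fibrillar class the type I and type III genes, the main fibers of connective tissue, were higher in both KO cerebella than in any control. Over all genes tested, 15.5% were higher in this way, so the separation alone says little about these genes. Col1a1 was at 9.53, 4.35 and 6.97 CPM in controls 1 to 3 and at 11.98 and 15.5 CPM in KO 1 and KO 2, a log2 change of 0.98 (SE 0.280). Its adjusted p was 0.155 with edgeR and 0.0227 with DESeq2, so this difference was called by 1 tool and not by the other. Col1a2 was at 36.6, 15.5 and 31.0 CPM and at 39.2 and 46.6 CPM (log2 change 0.63, adjusted p 0.401), and Col3a1 at 4.77, 1.76 and 3.31 CPM and at 4.83 and 5.22 CPM (0.61, adjusted p 0.520). In all 3 genes control 2 was the lowest library, and without it the log2 changes were 0.73, 0.34 and 0.31.

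Fibroblast and meninges markers changed in the same direction as these genes, but their sum did not separate the groups. Of 14 on the list 13 could be tested, 13 were higher in KO cerebellum and 0 were called, with 7 at an unadjusted p under 0.05. Their sum was 330, 132 and 256 CPM in controls 1 to 3 and 267 and 433 CPM in KO 1 and KO 2, so control 2 was again lowest and KO 1 lay within the controls. Per 1000 counts of the list, Col1a1 had 28.9, 32.9 and 27.2 counts in controls and 44.8 and 35.7 in KO mice, which did not overlap. Col1a2 had 111, 117 and 121 counts in controls and 147 and 108 in KO mice, and Col3a1 had 14.4, 13.3 and 12.9 and then 18.1 and 12.05, both overlapping. The part of meningeal tissue in the Col1a1 difference was not tested.

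**Figure D3:**
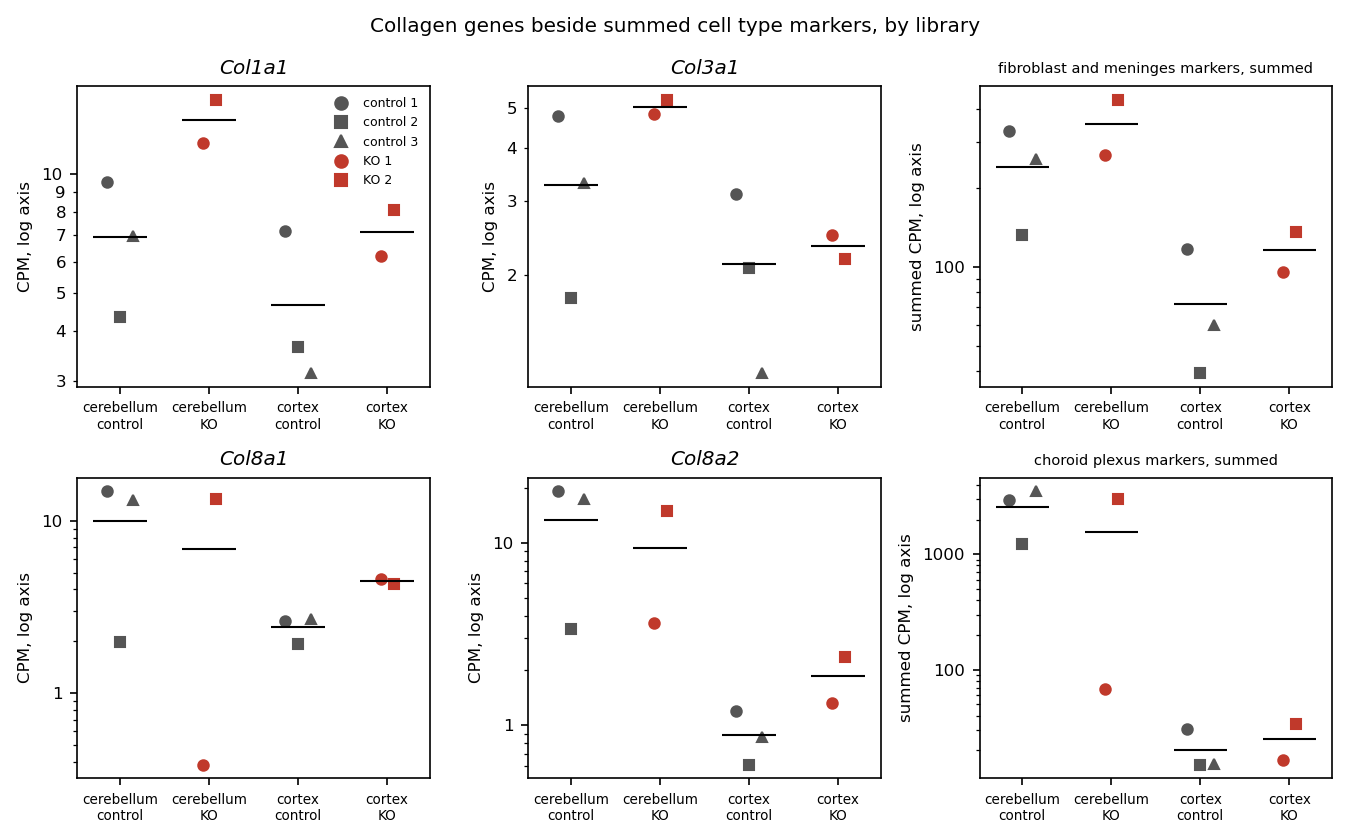
CPM of Col1a1 and Col3a1 with the summed CPM of 14 fibroblast and meninges markers (top), and of Col8a1 and Col8a2 with that of 12 choroid plexus markers (bottom), by library on log axes, with lines at group means. Control 2 is the lowest cerebellum library in the top panels, and KO 1 and control 2 are the lowest cerebellum libraries in the bottom panels.

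The remaining fibrillar genes were not called in cerebellum. Col11a1 was at 2.94, 2.27 and 2.24 CPM in controls and 2.58 and 6.13 CPM in KO mice (log2 change 0.82, adjusted p 0.351), so its difference came from KO 2. Col2a1, the cartilage collagen, was at 5.42, 5.18 and 4.48 CPM and 3.74 and 5.18 CPM. Col11a2, Col24a1 and Col27a1 had log2 changes of 0.30, 0.74 and 0.01, with overlapping groups. In all, 8 of 11 fibrillar members were higher and 3 lower in KO cerebellum, with 1 called, and their median log2 change was 0.30.

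Of the 6 basement membrane members 4 were higher and 2 lower, with 0 called and a median of 0.10. Col4a1 and Col4a2, whose products join in 1 molecule, are transcribed away from each other and their gene models share 22 bases. Their promoter windows, at chr8:11312777-11313076 (minus strand) and chr8:11312555-11312854 (plus strand) of GRCm38.p6, share 78 bases and are shown because the genes start from this common stretch.
Col4a1: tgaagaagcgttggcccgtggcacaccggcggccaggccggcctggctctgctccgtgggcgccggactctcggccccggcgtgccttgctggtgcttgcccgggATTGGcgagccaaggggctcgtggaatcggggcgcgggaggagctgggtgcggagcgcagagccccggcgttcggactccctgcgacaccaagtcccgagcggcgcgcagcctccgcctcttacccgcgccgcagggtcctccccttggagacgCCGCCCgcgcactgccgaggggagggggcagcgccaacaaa
Col4a2: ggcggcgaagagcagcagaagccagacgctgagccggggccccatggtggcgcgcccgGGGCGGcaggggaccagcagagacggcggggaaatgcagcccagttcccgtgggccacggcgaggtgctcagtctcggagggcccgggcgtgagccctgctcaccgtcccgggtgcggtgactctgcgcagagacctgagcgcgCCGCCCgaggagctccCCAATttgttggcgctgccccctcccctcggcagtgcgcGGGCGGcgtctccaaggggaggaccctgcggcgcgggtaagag
With the same motifs in capitals, the Col4a1 window held 1 GC box and 1 CCAAT box and the Col4a2 window 3 and 1. In cerebellum Col4a1 was at 10.7, 8.56 and 12.9 CPM in controls 1 to 3 and 13.2 and 13.7 CPM in KO mice (log2 change 0.32, SE 0.175, adjusted p 0.499). Col4a2 was at 11.8, 8.65 and 15.0 CPM and 13.7 and 14.6 CPM (0.26, SE 0.207, adjusted p 0.682). The TPM ratio of Col4a2 to Col4a1 stayed between 1.14 and 1.31 in the 5 cerebellum libraries and between 1.54 and 1.76 in the 5 cortex libraries, with no overlap between the tissues. The markers of endothelial cells, which rest on these membranes, summed to 163 to 182 CPM in cerebellum controls and to 178 and 196 CPM in KO mice, with 0 of 12 called.

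Col4a3 and Col4a4 also lie head to head, with 71 bases between the gene models. Col4a3 was at 1.78, 0.602 and 2.70 CPM in cerebellum controls 1 to 3 and at 0.220 and 2.24 CPM in KO 1 and KO 2. Col4a4 was at 2.43, 1.25 and 2.04 CPM and at 0.714 and 2.53 CPM. Both were lowest in KO 1 and next lowest in control 2, the libraries with the least choroid plexus marker signal. Their log2 changes were -0.39 and -0.20, and both were 0.41 without KO 1, while without KO 2 they were -2.91 and -1.42. Of the 6 basement membrane members 6 were higher without KO 1 and 2 without KO 2, so the count for the class turned on which KO mouse was in the fit. Col4a5 and Col4a6, the X-linked pair, changed by 0.10 and 0.11.

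Type VIII collagen was also lowest in KO 1 and control 2. Col8a1 was at 14.9, 1.99 and 13.2 CPM in cerebellum controls and at 0.385 and 13.3 CPM in KO 1 and KO 2, and Col8a2 at 19.2, 3.38 and 17.4 CPM and at 3.63 and 15.0 CPM. Without KO 1 their log2 changes turned from -0.51 and -0.50 to 0.41 and 0.18, so no direction can be given for either in cerebellum. The part of choroid plexus tissue in these values was not tested.

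The fibrillar and basement membrane classes were then compared by library. As the mean of log2(CPM + 0.5), fibrillar members were at 3.11, 2.82 and 3.01 in cerebellum controls 1 to 3 and at 2.95 and 3.45 in KO 1 and KO 2. Basement membrane members were at 2.63, 1.99 and 2.73 and at 2.09 and 2.82. The difference of these means, used only to compare libraries because it makes no allowance for gene length, was 0.49, 0.83 and 0.27 in controls and 0.86 and 0.64 in KO mice, and the groups overlapped. The pooled SD of this difference between libraries was 0.248 in cerebellum and 0.269 in cortex. It describes single libraries and is not an error of the group changes that follow. The median change of the fibrillar class exceeded that of the basement membrane class by 0.20 in cerebellum and was below it by 0.16 in cortex. With 1 library left out the value ran from -0.02 to 0.39 in cerebellum, the highest without control 2, and from -0.46 (without control 3) to 0.0057 (without control 2) in cortex, where it was -0.51 with the replicate block. The size of a difference between the classes was thus not settled by these libraries.

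**Figure D4:**
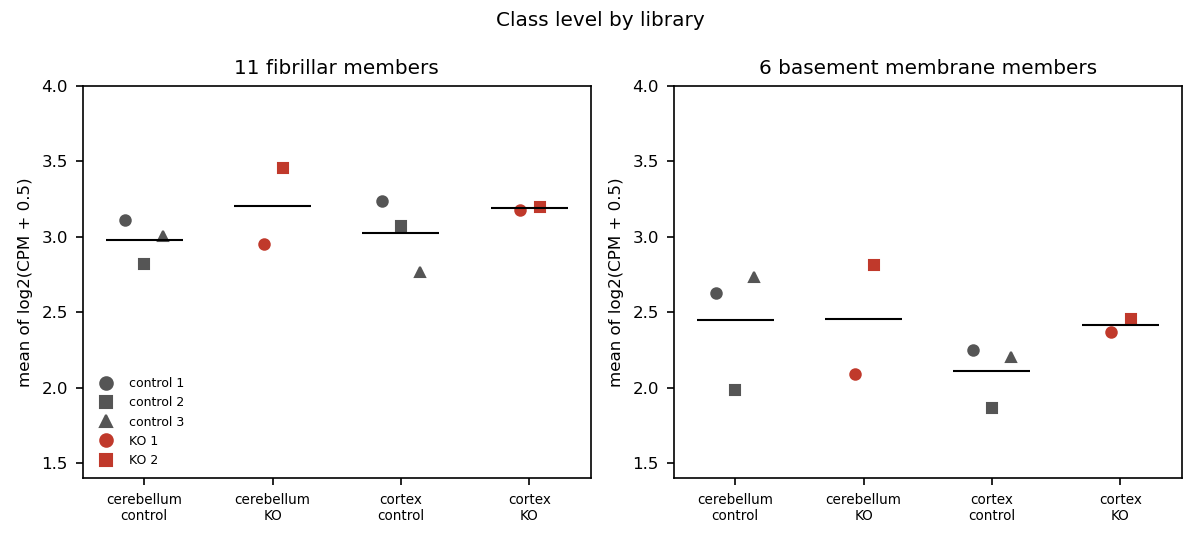
Mean of log2(CPM + 0.5) over 11 fibrillar members (left) and 6 basement membrane members (right) in each library, with 1 point per mouse and a line at the group mean. KO and control points overlap for both classes in cerebellum, where control 2 is the lowest control, and in cortex both KO basement membrane points (2.37 and 2.46) lie above the controls.

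Among the beaded filament genes 5 of 6 were higher in KO cerebellum and 1 lower, with 0 called and a median of 0.65. Col6a1, the shared chain of type VI molecules, was at 11.2, 7.50 and 10.1 CPM in controls and 11.5 and 16.0 CPM in KO mice (log2 change 0.52, adjusted p 0.318). Col6a6 was at 0.794, 0.833 and 0.712 CPM in controls and 0.385 and 0.373 CPM in KO mice, a log2 change of -1.04 (adjusted p 0.306) that rests on at most 18 counts in a library. Col6a5 was at 0.607, 0.139 and 2.34 CPM in controls 1 to 3 and 2.64 and 2.49 CPM in KO mice, and its log2 change of 1.33 (SE 0.722, adjusted p 0.501) was the highest of the tested members.

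FACIT genes, which bind to the surface of fibers, were mostly lower, 6 of 8 tested, with 0 called. Col12a1 was the exception with the smallest p, at 13.4, 10.6 and 10.5 CPM in controls and 15.1 and 18.3 CPM in KO mice (log2 change 0.53, SE 0.154, adjusted p 0.159). Col9a3 was at 62.5, 48.4 and 59.7 CPM in controls and 32.0 and 52.0 CPM in KO 1 and KO 2 (log2 change -0.44, adjusted p 0.372). It was lowest in KO 1 and next lowest in control 2, as were the choroid plexus markers, whose part in its value was not tested. Without KO 2 its change was -0.84, and without KO 1 it was -0.13. Its partner Col9a2 was at 18.9, 19.1 and 19.0 CPM in controls and 16.8 and 17.7 CPM in KO mice, a small difference without overlap (log2 change -0.14, adjusted p 0.627). Col16a1 was at 8.18, 8.28 and 7.99 CPM in controls and 7.47 and 15.2 CPM in KO 1 and KO 2. Its change of 0.48 was -0.14 without KO 2 and 0.89 without KO 1. KO 1 and KO 2 thus differed from each other by more than the controls did for Col9a3 and Col16a1.

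Of the transmembrane genes, Col25a1 was at 3.04, 0.602 and 1.93 CPM in cerebellum controls and 3.08 and 5.22 CPM in KO mice (log2 change 1.16, adjusted p 0.370). Col13a1, Col17a1 and Col23a1 changed by -0.43, 0.23 and 0.05, and Col7a1, the anchoring fibril collagen, by -0.01. Over the 41 members tested, groups did not overlap for 10 higher and 5 lower genes, where the shares over all genes were 15.5% and 14.6%. An unadjusted p under 0.05 was found for 5 higher and 4 lower members, against 6.9% and 6.53% of all genes.

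**Figure D5:**
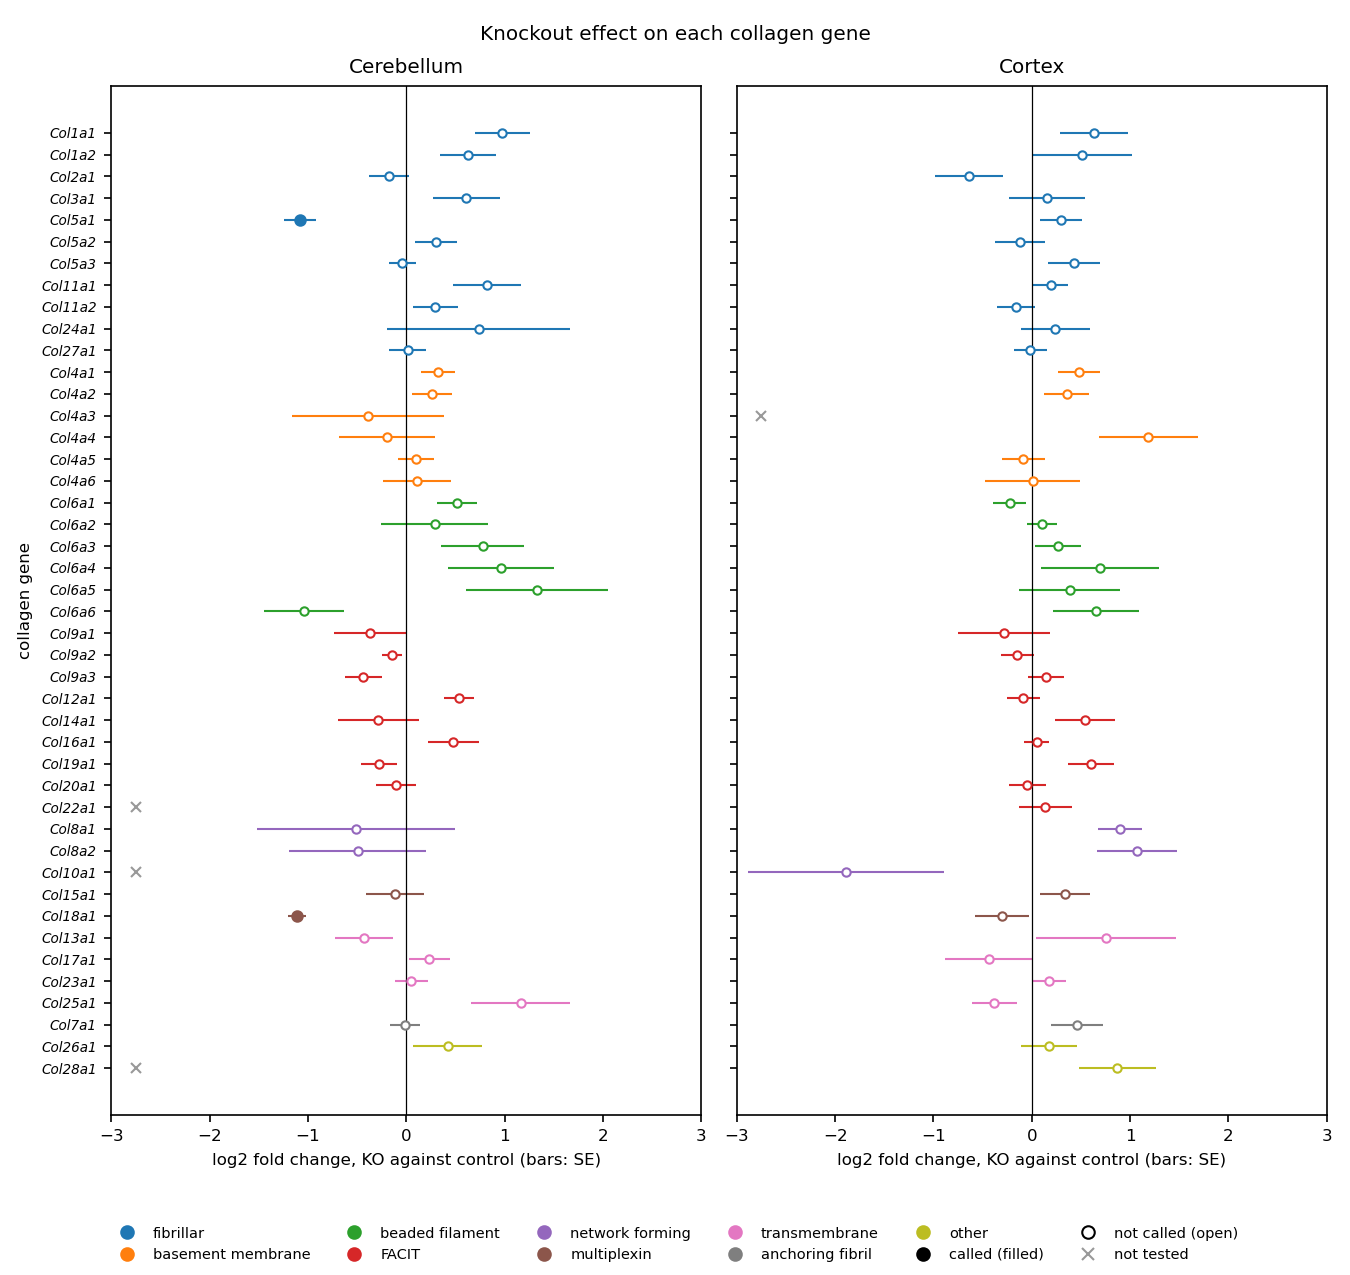
Log2 fold change of KO against control (horizontal, with SE bars) for each of the 44 collagen genes, grouped and colored by class, in cerebellum (left) and cortex (right), where filled points were called and crosses mark genes not tested. The only filled points are Col5a1 and Col18a1 in cerebellum, at -1.08 and -1.11.

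In cortex 43 collagen genes were tested, all but Col4a3, of which 29 were higher and 14 lower in KO mice, where 50.2% and 49.8% of all genes were. None was called with edgeR or DESeq2. Over all 19202 genes edgeR called 0% and DESeq2 called 3 higher (0.0156%) and 46 lower (0.24%). An unadjusted edgeR p under 0.05 was found for 4 members, all higher, against 2.64% of all genes higher and 3.29% lower. The groups did not overlap for 7 higher and 1 lower members, against 10.5% and 14.2% of all genes. The median log2 change was 0.18, against 0.00122 over all genes, and it stayed between 0.11 and 0.25 when any 1 library was left out.

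The type VIII genes had the smallest p-values in cortex. Col8a1 was at 2.64, 1.93 and 2.70 CPM in controls 1 to 3 and at 4.59 and 4.31 CPM in KO 1 and KO 2 (log2 change 0.90, SE 0.225, adjusted p 0.754). Col8a2 was at 1.20, 0.608 and 0.860 CPM and at 1.33 and 2.38 CPM (1.07, SE 0.408, adjusted p 0.797). Both were higher in every KO cortex than in every control. Choroid plexus markers were at 15.1 to 33.6 CPM in the cortex libraries, with up to 2 of 12 at 0, and 6 of the 12 could be tested, 4 higher and 2 lower.

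Col19a1, a FACIT made by interneurons, was at 22.6, 13.0 and 23.8 CPM in cortex controls and 29.5 and 29.8 CPM in KO mice (log2 change 0.60, adjusted p 0.808). Col25a1 was at 45.7, 25.8 and 41.6 CPM in controls and 26.6 and 30.6 CPM in KO mice (-0.38, adjusted p 0.886). Control 2 decided the latter, because without it the change was -0.59 with an adjusted p of 0.0180. Control 2 also had the most striatal marker signal, with a sum of 4496 CPM, against 2027 and 1843 CPM in controls 1 and 3 and 1150 and 610 CPM in KO 1 and KO 2, and all 10 striatal genes were lower in KO mice with 0 called. Less striatal tissue and lower expression of these genes in KO mice cannot be told apart, and their part in the collagen values was not tested.

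Of the type IV genes in cortex, Col4a1 was higher in both KO mice than in any control, Col4a2 overlapped, and neither was called. Col4a1 was at 45.1, 26.7 and 45.3 CPM in controls and 56.8 and 50.5 CPM in KO mice (log2 change 0.48, SE 0.215, adjusted p 0.861), and Col4a2 at 70.3, 39.5 and 67.3 CPM and 80.3 and 68.8 CPM (0.36, SE 0.227, adjusted p 0.886). Without control 2, the lowest library of both, the changes were 0.27 and 0.13. Of 12 endothelial markers 11 were higher in KO cortex, where 50.2% of all genes were, and 0 were called. Their sums overlapped, at 220, 150 and 117 CPM in controls and 218 and 206 CPM in KO mice. Per 1000 counts of this list, Col4a1 had 206, 178 and 386 counts in controls and 260 and 245 in KO mice. Col4a2 had 320, 263 and 573 and then 368 and 334, so both overlapped. The part of endothelial cells in these values was not tested. Col4a5 and Col4a6 changed by -0.08 and 0.01. Col4a4 had a log2 change of 1.19 (adjusted p 0.836) at under 1 CPM in each library.

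The type I and type III genes were not called in cortex. Col1a1 was at 7.19, 3.65 and 3.13 CPM in controls and 6.19 and 8.10 CPM in KO mice (log2 change 0.63, adjusted p 0.886), Col1a2 at 14.5, 3.24 and 6.94 CPM and 9.95 and 13.2 CPM, and Col3a1 at 3.12, 2.08 and 1.17 CPM and 2.49 and 2.19 CPM, and the groups overlapped for each. Fibroblast markers summed to 116, 39.3 and 59.9 CPM in these controls and to 95.2 and 136 CPM in KO mice. Col2a1 was at 3.18, 5.22 and 2.46 CPM in controls and 2.21 and 2.44 CPM in KO mice (-0.64, adjusted p 0.885), the only member with KO below all controls. Col10a1 was at 0.659, 0.101 and 0.676 CPM in controls and 0.166 and 0.0643 CPM in KO mice (-1.89, SE 0.996), from at most 11 counts.

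Of the 5 most abundant cortical collagens, Col6a1 and Col16a1 had the changes nearest to 0. Col6a1 was at 102, 138 and 94.1 CPM in controls and 101 and 88.4 CPM in KO mice (log2 change -0.22, SE 0.168), and Col16a1 at 24.6, 28.2 and 23.4 CPM and 24.6 and 27.6 CPM (0.05, SE 0.129). Col12a1, Col9a3 and Col9a2 changed by -0.09, 0.14 and -0.15, with overlapping groups.

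Whether a member responded to the KO differently in cerebellum and cortex was tested for all 44 with the 10 libraries together. None was called, against 0.102% of 20614 genes. An unadjusted p under 0.05 was found for 3 members with a more positive and 4 with a more negative effect in cerebellum, against 4.97% and 3.31% of all genes. Col5a1 had the smallest p, since it was lower in KO cerebellum and, in cortex, was at 32.6, 46.7 and 28.6 CPM in controls 1 to 3 and at 49.0 and 38.3 CPM in KO 1 and KO 2. Its difference was -1.36 on the log2 scale (SE 0.302, adjusted p 0.154). When the animal was added as a block, it was -1.38 with an adjusted p of 0.0330, and with DESeq2 the adjusted p was 0.00176. These fits called 0.417% and 0.635% of all genes in this direction. It also passed without cortex control 2 (adjusted p 0.0158), a library in which Col5a1 was higher than in the other controls. Col5a1 passed in no other fit that left out 1 library, and its difference ran from -1.67 to -1.11 over these fits. Col18a1 had a difference of -0.79 (adjusted p 0.374, and 0.216 with the block), at a cortical level of 2.32 to 4.32 CPM where a change is poorly measured. Col6a6 followed with -1.67 and Col6a1 with 0.77, both not called.

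The genes that make, hold and clear collagens were followed in lists. Of 30 genes of procollagen modification, secretion and cross-linking, 28 were tested in cerebellum, 22 were higher and 6 lower, and 1 was called. This was Adamts3, which removes the amino-terminal propeptide of fibrillar procollagen, at 19.0, 14.9 and 19.6 CPM in controls and 8.46 and 9.94 CPM in KO mice (log2 change -0.96, SE 0.160, adjusted p 0.0198). The call was lost in 4 of the 5 fits that left out 1 library (adjusted p from 0.0545 to 0.124) and held without control 2 (0.00545). Among 10 collagen receptors 9 were tested, 6 were higher and 3 lower, and 1 was called. Adgrg1, an adhesion receptor that binds type III collagen, was at 32.3, 37.1 and 41.3 CPM in controls and 58.8 and 61.4 CPM in KO mice (0.70, SE 0.105, adjusted p 0.0129). Without control 1, KO 1 or KO 2 its adjusted p was 0.0512 to 0.0695. Of 8 reactive astrocyte markers 4 were called higher in the same libraries, and their part in the Adgrg1 value was not tested.

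Of 11 genes of collagen breakdown and its inhibitors 9 were tested in cerebellum, 7 higher and 2 lower, with 0 called. The smallest p-values belonged to Mmp14, a membrane-bound collagenase (log2 change 0.23), and Timp3, a matrix-bound inhibitor (0.33). Of 16 laminin, nidogen and other basement membrane partners 12 were higher and 4 lower, again with 0 called, led by the laminin chains Lama1 (0.61, adjusted p 0.144) and Lamb2 (0.40, adjusted p 0.267). The medians of the 4 lists were 0.08, 0.23, 0.34 and 0.16.

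In cortex 0 members of the 4 lists were called. Adamts3 was at 13.7, 19.1 and 16.3 CPM in controls and 11.99 and 9.71 CPM in KO mice (log2 change -0.58). It and Tll2 (-1.25) were the processing genes with the smallest p. For receptors they were the integrin chains Itga10 (0.66) and Itga1 (0.55), for breakdown the collagen uptake receptor Mrc2 (0.68) and Timp3 (0.13), and for basement membrane partners Lamb1 (-0.47) and Lamb2 (0.53). Their adjusted p-values were 0.754 to 0.911.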

How the data were processed

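Messenger RNA of 10 tissue pieces was sequenced as strand-specific paired-end libraries. The deposited values are raw counts per gene, 1 table per library, which the authors made by trimming, alignment to GRCm38 with STAR and counting with featureCounts (Subread 2.0.1), without strand and without reads that mapped to several places. A further 26345 entries without a mouse gene identifier held 0.16% to 0.926% of counts and were left out. No member shares over 6.07% of its exonic bases with another gene.

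Groups came from the labels. For each tissue, KO was set against control by the edgeR 4.0.16 quasi-likelihood test (R 4.3.3, TMM factors, filterByExpr with a minimum count of 10), adjusted by Benjamini-Hochberg over all genes, and checked on simulated data. Calls needed an adjusted p under 0.05 and an absolute log2 change over 0.5 (only the former for the difference of effects). SE is the absolute log2 change divided by the square root of F. DESeq2 1.42.0, RLE factors, no filter, a replicate block and leaving out each library were alternatives. The tissues of 1 mouse deviated together (correlations 0.245 to 0.482), so the block pairs them in tests across tissues. TPM used the deposited exonic lengths. Promoters are from RefSeq.

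The members and gene lists were chosen with earlier results of these data known. By rule, per-library values were given for members called, the 3 smallest p in each direction and tissue, the 5 most abundant of each tissue, and Col1a1, Col1a2, Col3a1, Col4a1 and Col4a2. Of a gene list, those called or else the 2 with the smallest p were named. Per-library values of other members were added after they were seen.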

Additional observations from a re-analysis of the deposited data

Results flagged for a closer look

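Col5a1 responded to the KO differently in cerebellum and cortex when both samples of a mouse were paired, by a direct test of that contrast. The difference was -1.38 on the log2 scale (adjusted p 0.0330 over all genes, edgeR), with KO below every control in cerebellum (2 of 2 libraries) and overlapping in cortex. Without the pairing the adjusted p was 0.154 with edgeR, 0.0158 with edgeR when cortex control 2 was left out, and 0.00176 with DESeq2. Leaving out any other library gave no call with edgeR, with differences from -1.67 to -1.11 over all such fits.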

How the results depend on the processing

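The 2 members called in cerebellum were 8 without a filter on low counts (a fit whose prior degrees of freedom were infinite, which makes its p-values too small), 1 to 3 when 1 library was left out, the lowest without control 1, and 10 without control 2 and KO 1 together, an alternative chosen after the data were seen. In cortex the 0 members became 1 without the filter, and 0 to 1 with 1 library left out, the 1 being without control 2. For the difference of KO effects the 0 members became 1 with DESeq2, 7 without the filter, 1 with the animal as a replicate block, and 0 to 1 with 1 library left out. The 33 tissue calls were 28 to 36 with 1 library left out. The cerebellum fit without control 2 and KO 1 together took its single KO library to vary as controls 1 and 3 did. Its count is therefore no measure of how far the 2 cerebellum calls depend on these libraries. The fibrillar minus basement membrane median in cortex was -0.51 with the replicate block and -0.46 to 0.0057 with 1 library left out, and in cerebellum -0.02 to 0.39.

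Within a tissue the replicate numbers name different mice, whose deviations correlated by -0.0300 to 0.169. Control 1 and KO 1 were both female and control 2 and KO 2 both male. The replicate block within a tissue therefore also matched the mice by sex, and it gave control 3 a level of its own. It left 2 calls in cerebellum and 0 in cortex.

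Signs turned for members that were not called, given here as ranges with 1 library left out. In cerebellum Col8a1 ran from -4.69 (without KO 2) to 0.41 (without KO 1), Col8a2 from -1.89 to 0.18, Col2a1 from -0.44 to 0.04, Col16a1 from -0.14 to 0.89, Col4a3 from -2.91 to 0.41 and Col4a4 from -1.42 to 0.41. Without control 2 and KO 1 together, Col2a1 was at 0.0566 and Col16a1 at 0.90. In cortex Col12a1 ran from -0.21 to 0.0427, Col16a1 from -0.0301 to 0.13 and Col3a1 from -0.13 to 0.52, and with the block Col16a1 was at -0.0069 and Col3a1 at -0.12. Between tissues Col5a1 ran from -0.22 to 0.14. The cause was not tested. With 2 KO mice, modest changes of scarce members were not detectable, and p-values measure the spread between these mice only.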
